A study of Mus musculus with 9 samples.

Results

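The genes described here are 53 mouse genes of the Wnt signaling pathway, namely 19 Wnt ligands, 10 Frizzled receptors, 4 co-receptors (Lrp5, Lrp6, Ror1 and Ror2), 8 secreted antagonists, 7 cytoplasmic transducers and 5 nuclear effectors. They were looked up by gene symbol in a list of chromatin regions open in the embryonic heart field, and each distinct region carrying a member's symbol was taken as assigned to that gene. Of the 53 genes, 34 had an assigned region and 19 had none, and the 34 genes held 59 of the 17164 distinct regions in the list. The study profiled open chromatin by ATAC-Seq (adapter insertion into exposed DNA by Tn5) and asked how the LIM-homeodomain factor Isl1 and the chromatin remodeler Brg1 shape it. Pharyngeal mesoderm and hearts were dissected from embryos at E8.75 (6 somites). The 9 libraries comprised 3 from wild-type (wt) embryos, 3 from Isl1-/- embryos and 3 from embryos with Isl1Cre+/-/ Brg1fl/fl, in which Cre is made where Isl1 is transcribed, so cells that never turned Isl1 on keep Brg1. Only the wild-type list was used here, the mutant groups were not analysed here, and no agent was given to any group in the labels.

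The wild-type list holds the regions common to the 3 libraries, as 1 set of mm9 positions with an assigned transcription start site (TSS) and the signed distance to it. It carries no height and no value per library, so there is no replicate error, no test between samples was possible, and the depth is unknown. The dissected tissue mixes cell types, and a region open in few cells cannot be told apart from one weakly open in many. Among markers of the heart, 5 of 9 cardiac genes (Isl1, Tbx20, Gata4, Hand2 and Mef2c) had a region, while the cardiac genes Nkx2-5, Tbx5, Tnnt2 and Myh6 had none. Of the markers of other cell types, 4 of 5 neural, 3 of 5 endothelial, 2 of 5 blood, 2 of 4 liver and 1 of 4 skeletal muscle genes had one. The share over all coding genes was 49.3%. A listed region therefore does not by itself show that its gene is transcribed, and a missing one does not show closed chromatin.

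Wnt proteins are secreted lipid-modified ligands that bind Frizzled receptors together with a co-receptor. With Lrp5 or Lrp6 they stop the destruction complex of Axin, Apc and Gsk3 from degrading β-catenin, which then acts with Tcf and Lef factors on target genes, whereas Ror receptors serve β-catenin-independent signaling. In the developing heart, β-catenin signaling sustains second heart field progenitors, and Wnt5a and Wnt11 are known as β-catenin-independent ligands of the outflow tract.

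The windows below show the DNA behind the main contrasts, 300 bases each (150 for Wnt10a) and printed 5′ to 3′ from the mm9 genome. The first set compares the sequence just before the start of Axin2 (chr11:108781363-108781662, plus strand), of Dkk2 (chr3:131747956-131748255, plus strand) and of Wnt4 (chr4:136833104-136833403, plus strand), with CpG dinucleotides in capitals.
Axin2: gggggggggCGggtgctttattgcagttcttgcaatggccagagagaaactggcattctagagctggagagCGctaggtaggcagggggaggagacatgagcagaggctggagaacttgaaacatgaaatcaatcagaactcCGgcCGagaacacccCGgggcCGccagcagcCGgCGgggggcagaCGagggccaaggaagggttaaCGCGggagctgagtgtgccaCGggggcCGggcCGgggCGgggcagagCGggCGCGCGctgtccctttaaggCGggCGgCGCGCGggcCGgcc
Dkk2: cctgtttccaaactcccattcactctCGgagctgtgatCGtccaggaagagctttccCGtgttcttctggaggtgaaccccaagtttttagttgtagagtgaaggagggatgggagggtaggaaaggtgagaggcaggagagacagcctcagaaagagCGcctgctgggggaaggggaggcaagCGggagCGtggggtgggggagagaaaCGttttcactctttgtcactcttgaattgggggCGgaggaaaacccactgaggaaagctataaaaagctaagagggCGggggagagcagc
Wnt4: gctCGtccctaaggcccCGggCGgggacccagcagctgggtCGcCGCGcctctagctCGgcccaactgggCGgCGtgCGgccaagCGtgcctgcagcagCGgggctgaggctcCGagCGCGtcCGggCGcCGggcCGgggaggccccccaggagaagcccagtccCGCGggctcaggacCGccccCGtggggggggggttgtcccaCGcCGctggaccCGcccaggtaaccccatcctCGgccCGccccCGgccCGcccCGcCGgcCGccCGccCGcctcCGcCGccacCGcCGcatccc
The Axin2 window holds 25 CpG and the Dkk2 window 9, and both lie within an open region. The Wnt4 window holds 39 CpG at 81.0% GC, the most of the set, and no listed region overlaps it.

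The second set shows the centers of regions far from the start of their gene, chosen from the 8 windows with the most matches to 5 short motifs and printed on the plus strand of mm9. They belong to Wnt5a (chr14:29264095-29264394), Dkk1 (chr19:30719068-30719367), Ror2 (chr13:53307456-53307755) and Fzd1 (chr5:4496432-4496731). Capitals mark motif matches on either strand.
Wnt5a: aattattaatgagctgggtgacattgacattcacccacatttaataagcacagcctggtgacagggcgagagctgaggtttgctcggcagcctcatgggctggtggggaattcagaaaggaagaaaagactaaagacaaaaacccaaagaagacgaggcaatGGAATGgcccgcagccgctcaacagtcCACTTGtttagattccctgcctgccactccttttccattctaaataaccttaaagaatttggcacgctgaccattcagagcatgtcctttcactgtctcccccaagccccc
Dkk1: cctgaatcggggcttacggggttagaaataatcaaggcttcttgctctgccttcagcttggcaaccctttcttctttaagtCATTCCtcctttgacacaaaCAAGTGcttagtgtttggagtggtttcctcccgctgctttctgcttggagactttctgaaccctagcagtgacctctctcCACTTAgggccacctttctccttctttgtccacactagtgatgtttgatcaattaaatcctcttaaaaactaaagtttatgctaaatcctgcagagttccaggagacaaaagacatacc
Ror2: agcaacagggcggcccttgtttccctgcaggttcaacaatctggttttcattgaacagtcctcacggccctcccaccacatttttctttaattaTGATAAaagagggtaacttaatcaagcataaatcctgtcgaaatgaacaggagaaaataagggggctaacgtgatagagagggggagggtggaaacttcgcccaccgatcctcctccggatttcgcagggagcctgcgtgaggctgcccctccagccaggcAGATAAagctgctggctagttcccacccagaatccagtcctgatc
Fzd1: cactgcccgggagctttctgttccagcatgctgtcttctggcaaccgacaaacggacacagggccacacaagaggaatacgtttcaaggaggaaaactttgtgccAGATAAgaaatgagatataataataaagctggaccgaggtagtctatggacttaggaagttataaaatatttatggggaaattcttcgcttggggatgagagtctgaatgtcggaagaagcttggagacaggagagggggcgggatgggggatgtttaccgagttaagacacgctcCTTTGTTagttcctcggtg
The Wnt5a and Dkk1 windows hold NKX2 and TEAD words, Ror2 holds 2 GATA words, and Fzd1 holds 1 TCF/LEF and 1 GATA word.

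The third set shows tRNA-like sequence inside the regions assigned to Wnt11 (chr7:105964175-105964474) and Wnt10a (chr1:74863282-74863431), on the plus strand of mm9. Capitals mark the tRNA-like part, which reads on the minus strand in both. The Wnt10a window was chosen after its values were seen.
Wnt11: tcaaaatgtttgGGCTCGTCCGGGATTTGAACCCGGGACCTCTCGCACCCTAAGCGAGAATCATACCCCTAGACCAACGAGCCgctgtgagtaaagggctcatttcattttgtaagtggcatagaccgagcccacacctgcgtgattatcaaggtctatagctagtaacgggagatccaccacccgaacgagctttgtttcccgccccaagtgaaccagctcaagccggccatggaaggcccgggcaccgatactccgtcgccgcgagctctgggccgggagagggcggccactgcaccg
Wnt10a: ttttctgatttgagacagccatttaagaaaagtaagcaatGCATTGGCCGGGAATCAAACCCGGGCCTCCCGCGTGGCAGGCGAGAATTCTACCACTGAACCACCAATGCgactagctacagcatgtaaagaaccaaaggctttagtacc
The capitals begin and end with complementary 7-base stretches, as the acceptor stem of a tRNA does.

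Across the pathway, 34 of 53 genes (64.2%) had at least 1 region, compared with 49.3% of 21031 protein-coding genes. Within 1 kb of the assigned TSS, here called a promoter region, 25 of 53 genes (47.2%) had one, compared with 40.6% of coding genes. These shares were not matched for CpG content at the start, and the shares by CpG content are given further below. Genes with several regions were also more frequent, in shares not matched for the distance between the neighboring coding starts. The median of that distance was 169 kb for members, compared with 89.7 kb for coding genes. A total of 11 members (20.8%) had 2 or more regions, compared with 12.9% of coding genes, and 7 members (13.2%) had 3 or more, compared with 4.96%. These 7 were Fzd1 and Lef1 with 5 regions each, Dkk2, Fzd8 and Sfrp2 with 4 each, and Dkk1 and Tcf7l1 with 3 each. Fzd3, Frzb, Apc and Tcf7l2 had 2, and the remaining 23 genes had 1. Regions at 14 genes were at the promoter only, at 9 genes distal only, and at 11 genes both.

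**Figure D1:**
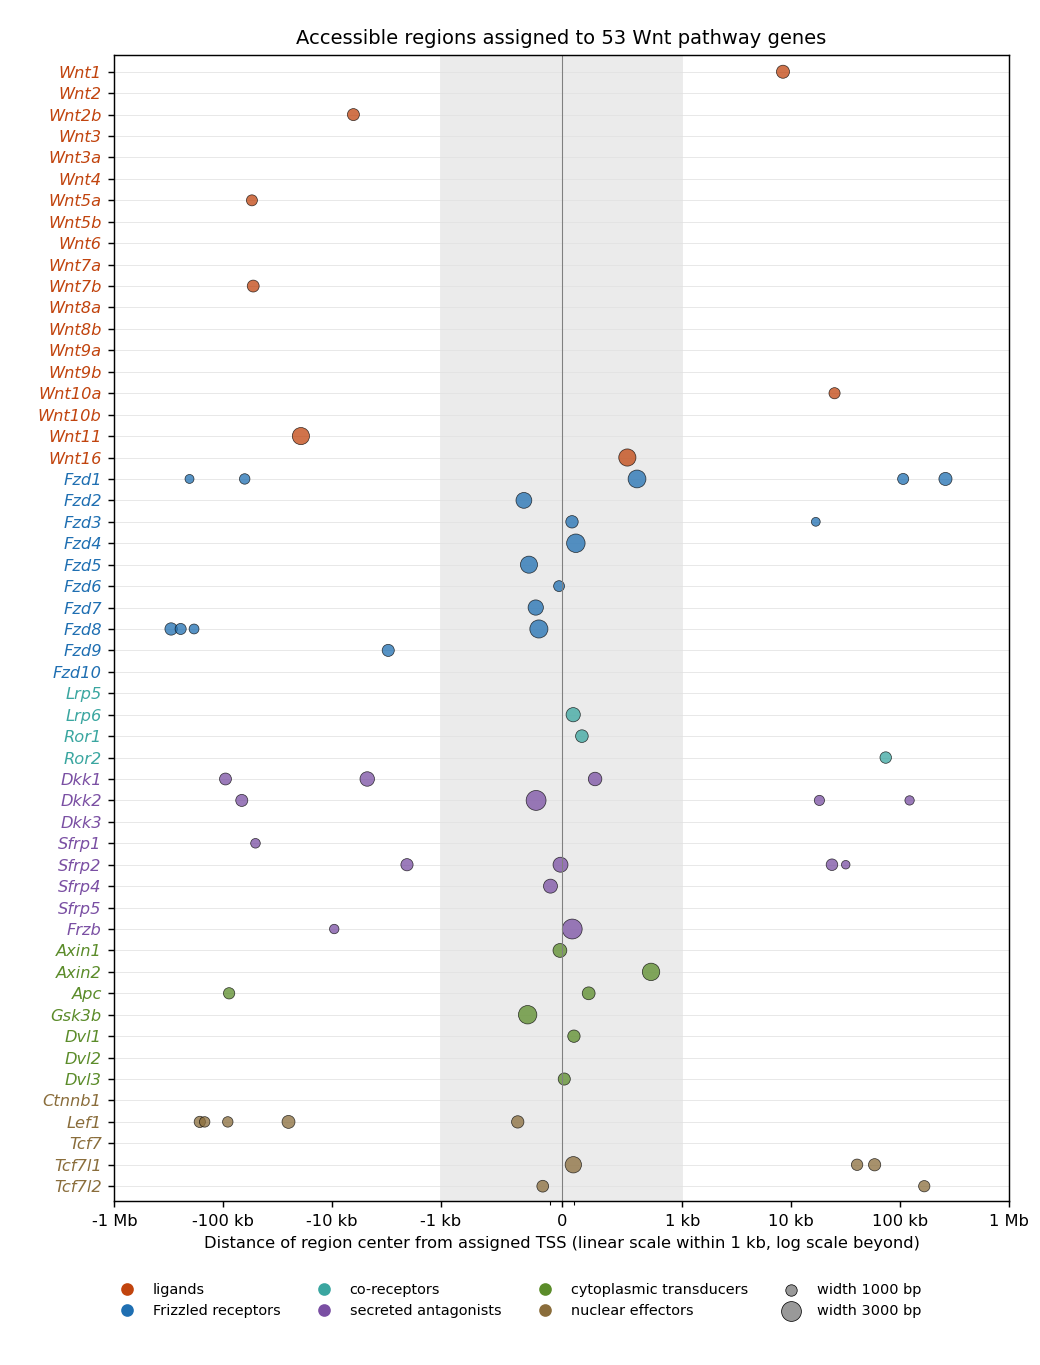
Distance of each of the 59 regions (points, area by width) from the assigned TSS for the 53 Wnt pathway genes, colored by role, with the zone within 1 kb shaded and the axis logarithmic outside it. The ligand rows at the top have 1 point in the shaded zone, at Wnt16, while 8 of the 10 Frizzled genes have one. The Lef1 and Fzd8 points all lie upstream of or at the TSS assigned to each region, which was not the same start for all Lef1 regions.

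The roles differed most at the promoter. Of the 19 ligands, 7 had a region and 1 had a promoter region. Of the other 34 genes, 27 had a region and 24 had a promoter region. By role, a promoter region was listed for 8 of 10 Frizzled receptors, 2 of 4 co-receptors, 5 of 8 antagonists, 6 of 7 cytoplasmic transducers and 3 of 5 nuclear effectors. In the plot of region distances by gene, Wnt16 is the 1 ligand with a point in the shaded zone.

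Among the ligands, Wnt16 was the exception, with a region 2265 bp wide centered at 544 bp from the TSS. The other 6 ligands with a region had it at a distance. Wnt11 had 1 region at −19298 bp of 2263 bp, the widest distal region of the pathway, and Wnt5a had 1 at −54415 bp of 929 bp, in an intron of the neighboring gene Erc2. The midpoint of the latter was nearer to a start of Wnt5a than to that of any other coding gene, as assignment to the nearest start would give. Wnt7b had 1 region at −52950 bp (1092 bp wide) and Wnt2b had 1 at −6351 bp (1111 bp). Wnt1 and Wnt10a, at 8396 bp and 25008 bp, had theirs downstream, past the 3′ end of the gene, with widths of 1312 and 956 bp.

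The distal regions of Wnt11 and Wnt10a each contained tRNA-like sequence, shown in the third set above. A search was made for a relaxed form of the B box of the internal tRNA promoter, followed by 3 bases and by 7 bases that pair with the beginning of a stretch of 65 to 95 bases. It found 2 such sequences in the Wnt11 region, 1 on each strand and both 71 bases long, at chr7:105963925-105963995 and chr7:105964187-105964257. In the Wnt10a region it found 1, of 70 bases, at chr1:74863322-74863391 on the minus strand. Over the whole list, 55 of 17164 regions (0.320%) had a match, and 44 of 8081 (0.544%) among those beyond 1 kb. Of the 34 member regions beyond 1 kb, the 2 of Wnt11 and Wnt10a had one, and none of the 25 promoter regions did. The RefSeq gene table, of a later assembly and used for names only, lists the tRNA genes n-TPtgg8 and n-TPagg7 near Wnt11 and n-TGgcc3 near Wnt10a. The nearest coding start of both regions was that of the Wnt gene, as assignment to the nearest start would give. Whether the opening belongs to the tRNA genes or to the ligand was not tested.

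A total of 12 ligands had no region, namely Wnt2, Wnt3, Wnt3a, Wnt4, Wnt5b, Wnt6, Wnt7a, Wnt8a, Wnt8b, Wnt9a, Wnt9b and Wnt10b. Wnt2, a ligand known from the early heart, lay in a gap of 420 kb between listed regions assigned to St7 and Cftr. That gap was longer than 92.6% of gaps in the list, whose median was 72.8 kb. Such ranks count each gap once whatever its length, while a long gap covers more positions, so they overstate how unusual a gap is. The genes of this paragraph were also taken because they had no region. The nearest region to the start of Wnt2 was 140056 bp away. The start of Wnt4 was 191172 bp from any region, inside a gap of 419 kb. Wnt8b lay in a gap of 541 kb and the 5′ end of the Wnt5b gene in one of 367 kb. For Wnt5b the nearest region, 12516 bp away, lay inside the gene's own span and was assigned to Fbxl14. Wnt10b had the closest one, assigned to Arf3 at 11566 bp.

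Several ligand genes sit in neighboring pairs. The spans of Wnt1 with Wnt10b (22.1 kb), Wnt6 with Wnt10a (32.3 kb), Wnt3 with Wnt9b (90.6 kb) and Wnt3a with Wnt9a (85.5 kb) contained 0 regions each, beside a median gap of 72.8 kb between neighboring regions over the list. Within 50 kb on either side, the counts were 3, 1, 1 and 3. In the Wnt6 and Wnt10a pair that single region was the one with the tRNA-like sequence.

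Ligands without a promoter region were found at all levels of CpG. CpG content, which marks most promoters open in many tissues, was measured within 500 bp of each start and coding genes were split into tertiles. In the highest tertile, 64.8% of 5868 coding genes had a promoter region, compared with 54.4% in the middle and 7.05% in the lowest. Of the 19 ligands, 11 were in the highest tertile and 0 of them had a promoter region, and 0 of the 5 in the middle tertile did. Wnt16, the ligand that did, was in the lowest tertile, with 2.70 CpG per 100 bp, while Wnt8a and Wnt8b in that tertile had none. Among the other pathway genes, 17 of 24 in the highest tertile (70.8%) and 7 of 10 in the middle tertile (70.0%) had a promoter region. Over all members, it was 17 of 35 in the highest tertile (48.6%) and 7 of 15 in the middle (46.7%), both below the coding share. In the lowest tertile it was 1 of 3. Any region was listed for 24 of 35, 9 of 15 and 1 of 3 members, from highest to lowest. The shares of coding genes were 71.6%, 61.6% and 19.6%. Wnt4, with 13.7 CpG per 100 bp, Wnt9a with 13.1 and Wnt5b with 13.0 ranked above all Frizzled genes but Fzd3 (13.9). These values describe 1 list and no test was made on them.

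**Figure D2:**
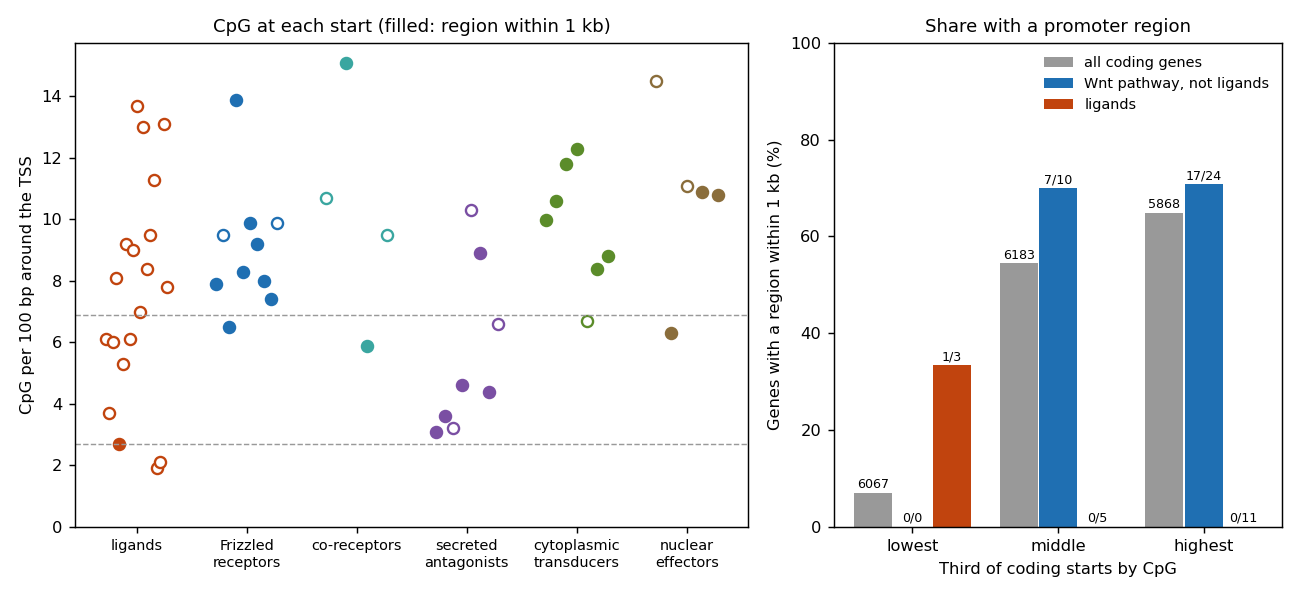
Left, CpG per 100 bp within 500 bp of the start for each gene by role, with filled points for genes with a region within 1 kb and dashed lines at the tertile limits of all coding genes; right, percent of genes with such a region in each tertile, with the number of genes above the bars. Ligand points are open up to 13.7 CpG per 100 bp, and the ligand counts are 0 of 5 and 0 of 11 in the middle and highest tertile.

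The receptors showed the opposite picture. Fzd2, Fzd4, Fzd5, Fzd6 and Fzd7 each had a single region, at −312, 118, −270, −21 and −214 bp, and Fzd3 had 1 at 86 bp and a small one of 600 bp in its own intron at 16818 bp. Of the 8 Frizzled promoter regions, the widest was that of Fzd4, 2620 bp, followed by Fzd8 with 2512 bp and Fzd1 with 2435 bp. The narrowest of these 8 was that of Fzd6, 912 bp. Fzd9 had only a region at −3038 bp of 1127 bp.

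Fzd1 was the receptor with the most regions. Beside the promoter region at 624 bp it had regions at −203980 bp (619 bp wide), −63420 bp (846 bp), 106869 bp (942 bp) and 261635 bp (1323 bp). Both upstream regions lay in introns of the neighboring gene Cdk14, and for the farther one the start of Cdk14 was nearer than that of Fzd1. Fzd8 had its 3 distal regions upstream, at −301078, −246015 and −185300 bp, 1175, 950 and 752 bp wide. The farthest of them was nearer to Gm5819.

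Fzd10 had no region of its own only by name. Its start lay inside a region of 3181 bp that the list assigned to the antisense gene 5930412G12Rik (Fzd10os), with the center 323 bp away. By overlap, 9 of 10 Frizzled starts were therefore in a listed region. Of the co-receptors, Lrp6 had a promoter region of 1554 bp at 96 bp and Ror1 one of 1230 bp at 168 bp. Ror2 had only a region in its own intron, at 73873 bp and 1018 bp wide, and Lrp5 had none, the nearest lying 21708 bp from its start.

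The secreted antagonists had 15 regions among 8 genes. Dkk1 blocks the co-receptors Lrp5 and Lrp6, and Sfrp proteins and Frzb bind the ligands themselves. Dkk2 carried the widest region of the pathway, 3034 bp at −211 bp, and further regions at −67468 bp (1114 bp), 18152 bp (800 bp, in its own intron) and 122416 bp (674 bp). Dkk1 had regions at −95231 bp (1092 bp, in an intron of Prkg1), −4739 bp (1615 bp) and 277 bp (1407 bp). Frzb had the second widest, 3027 bp at 88 bp, and a region of 684 bp at −9530 bp.

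Sfrp2 had 4 regions, at −9 bp (1718 bp wide), −2043 bp (1148 bp), 23679 bp (1031 bp) and 31695 bp (562 bp). The one at 23679 bp had its midpoint 44 bp from a start of the long noncoding RNA Gm16790. Sfrp4 had 1 promoter region of 1504 bp at −92 bp, and Sfrp1 had 1 of 711 bp at −50470 bp. Sfrp5 and Dkk3 had none, with the nearest regions 31518 and 67036 bp from their starts. The antagonist genes had fewer CpG at the start than the other roles, with a median over the 8 genes of 4.50 per 100 bp compared with 8.74 for Frizzled genes.

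The transducers had mostly a single promoter region. These were Axin1 (1463 bp at −14 bp), Gsk3b (2602 bp at −281 bp), Dvl1 (1176 bp at 102 bp) and Dvl3 (1131 bp at 22 bp). Apc, a scaffold of the destruction complex, had a region of 1266 bp at 224 bp and another of 986 bp at −88230 bp. Axin2, both a scaffold of that complex and a widely used direct target of β-catenin signaling, had 1 region of 2328 bp at 740 bp, which also covered the window printed above. Dvl2 had none, although a region assigned to Phf23 lay 4845 bp from its start, and its gap of 24.2 kb was longer than 20.1% of gaps.

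Among nuclear effectors, Lef1 and Tcf7l1 held most of the regions, with their distal regions in opposite directions from the start. Lef1, a DNA-binding partner of β-catenin and itself a target of the pathway, had the centers of all 5 regions upstream of the assigned TSS, at −363 bp (1171 bp wide), −25089 bp (1291 bp), −90714 bp (845 bp), −147965 bp (843 bp) and −164061 bp (974 bp). The nearest of them spanned an annotated start of Lef1 but lay inside the gene. Its distance was taken from a start farther into the gene than that used for the distal regions. Tcf7l1, mainly a repressor, had a promoter region of 2051 bp at 97 bp and 2 regions in its own introns, at 40304 bp (1003 bp) and 58384 bp (1155 bp). Tcf7l2 had a region of 1065 bp at −156 bp and one of 984 bp at 167007 bp. Ctnnb1, which encodes β-catenin, and Tcf7 had none. The start of Ctnnb1 had 14.5 CpG per 100 bp, but the nearest region was 237468 bp away, in a gap of 639 kb that was longer than 96.5% of gaps. The gap of Tcf7 was 128 kb, longer than 67.8% of gaps, and these ranks too count each gap once whatever its length.

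Promoter regions of the pathway were wide. The 25 regions were 1718 bp wide at the median (interquartile range 1230 to 2328), against 1294 bp (1084 to 1612.5) over all 9083 regions within 1 kb. A width of 2 kb or more was reached by 10 of 25, compared with 9.97% of all. These 10 were Dkk2, Frzb, Fzd4, Gsk3b, Fzd8, Fzd1, Axin2, Wnt16, Fzd5 and Tcf7l1. Within the highest CpG tertile, 7 of 17 members reached that width, compared with 15.2% of 3803 coding genes. Member promoter regions had a median GC of 61.3% and 6.71 CpG per 100 bp, compared with 58.1% and 5.93 over all.

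**Figure D3:**
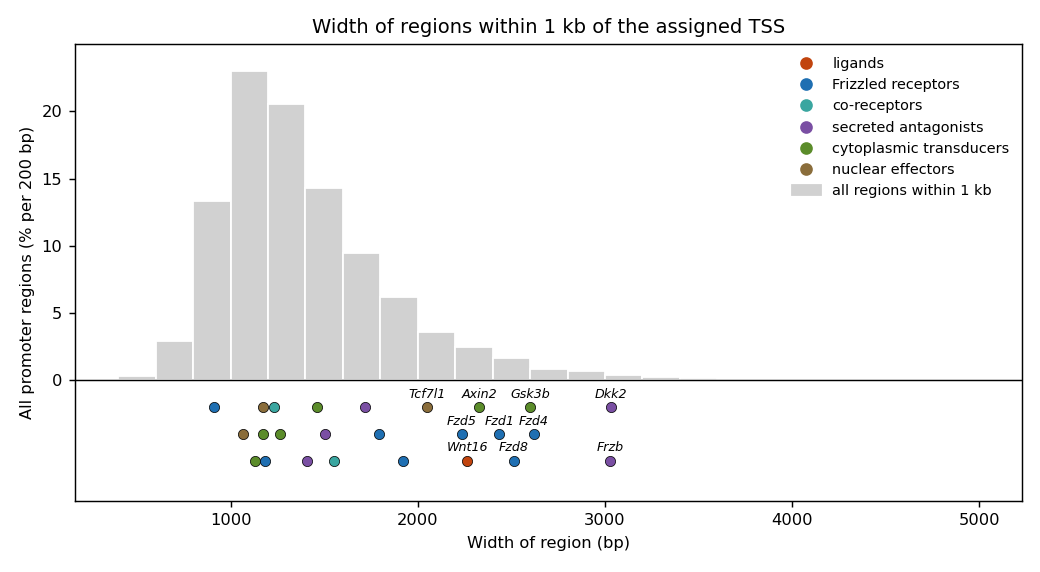
Width in bp of regions within 1 kb of the TSS, as gray bars for all 9083 regions (percent per 200 bp) and as points under the axis, spread vertically for legibility, for the 25 Wnt pathway regions colored by role. The 10 named points lie at 2 kb or more, where 9.97% of all regions fall.

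Member regions beyond 1 kb were near the rest of the list in width (median 985 bp, against 950 bp for all). Over all member regions, 25 of 59 (42.4%, 95% Wilson interval 30.6 to 55.1) were within 1 kb, compared with 52.9% of the list. Of the 34 distal ones, 13 (38.2%) lay downstream, compared with 54.5% of all distal regions, and 21 upstream. A total of 10 (29.4%) lay beyond 100 kb, compared with 31.6%. By place of the midpoint, 24 of the 34 (70.6%) were intergenic, compared with 4445 of the 8081 distal regions in the list, 9 were in introns and 0 in exons. Of the 34, 32 were nearest to a start of their own gene among coding genes. Assignment to the nearest start would give this by construction, and the rule used is stated only for ChIP-Seq. The 20 genes with a distal region lay in wide territories, with a median of 467 kb between neighboring coding starts, compared with 141 kb for the other members and 89.7 kb for coding genes. If each region went to the nearest start, a wider territory collects more of them by construction.

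Motif words were counted beside the same words in all regions of the list. The central 300 bp were searched on both strands for short words, which can overlap. The TCF/LEF words were CTTTGAT and CTTTGTT. The ISL1 words were CTAATG and CTAATT. The GATA words were AGATAA and TGATAA. The NKX2 words were CAAGTG and TAAGTG, and the TEAD word was GGAATG. Beyond 1 kb, TCF/LEF words were in 5 of 34 member regions (14.7%) compared with 17.8% of all, ISL1 words in 4 (11.8%) compared with 22.0%, GATA words in 5 (14.7%) compared with 22.4%, NKX2 words in 9 (26.5%) compared with 24.1%, and TEAD words in 5 (14.7%) compared with 22.2%. The 5 with a TCF/LEF word were those of Wnt11, Fzd1 at 261635 bp, Fzd8 at −246015 bp, Sfrp1 and Apc. Within 1 kb, the promoter regions of Axin2 and Fzd7 were the 2 of 25 with a TCF/LEF word (8.0%), compared with 4.24% of all. ISL1 words were in 3 of 25 (12%) compared with 5.86%, TEAD words in 3 (12%) compared with 9.26%, and GATA words in 1 (4.0%) compared with 5.45%. NKX2 words were in 0 of 25, with an interval up to 13.3%, compared with 13.4% of all. This NKX2 difference did not hold in the other windows. The central 200 bp again gave 0 of 25, but with 9.13% of all, inside the interval. Whole regions within 1 kb gave 72.0% of members compared with 63.5% of all. At 300 bp, each share of all regions, other than that of NKX2 within 1 kb, lay inside the interval of the members. The ISL1 shares moved with the window. In the central 200 bp, ISL1 words were in 1 of 34 member regions beyond 1 kb (2.94%, interval 0.521 to 14.9) compared with 15.05% of all, and in 3 of 25 within 1 kb compared with 3.83%, just under the lower limit of 4.17%. In whole regions beyond 1 kb, ISL1 words were in 55.9% compared with 54.6%, and GATA words in 41.2% (interval 26.4 to 57.8) compared with 59.8%. The shares were not matched for base composition. Beyond 1 kb, member regions had a median GC of 49.9% and 1.92 CpG per 100 bp, compared with 47.5% and 1.35 over all. The values outside an interval were picked from all combinations of motif, distance class and window. A word is a description of the sequence and not a binding site.

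**Figure D4:**
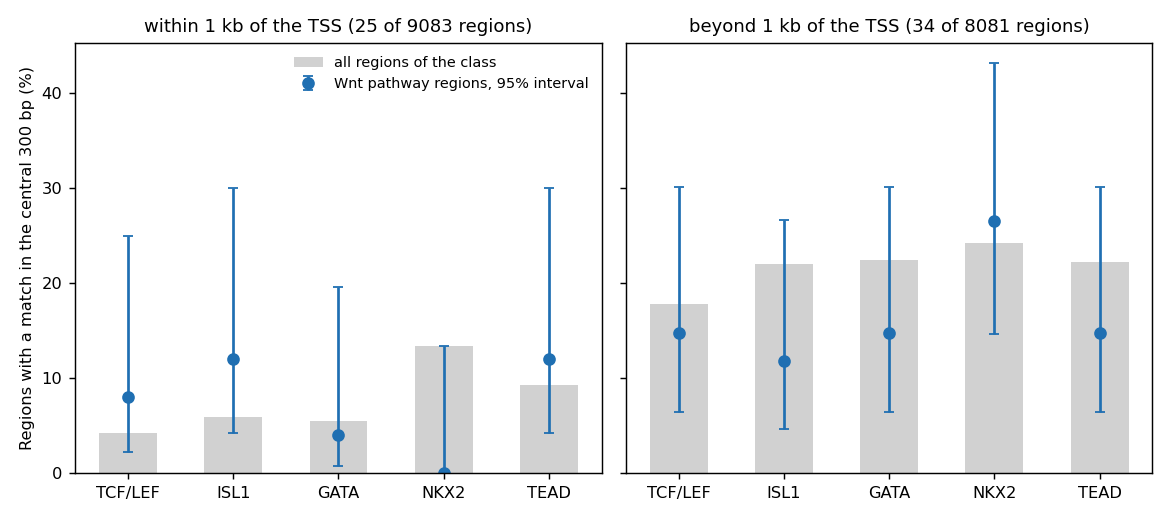
Percent of regions with a motif word in the central 300 bp, for all regions of the class (bars) and for Wnt pathway regions (points with 95% Wilson intervals), within 1 kb (left) and beyond 1 kb of the TSS (right). The bars lie inside the intervals except NKX2 at left, where 0 of 25 gives an upper limit of 13.3% beside 13.4%.

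A further 50 pathway genes outside the 53 were listed for comparison. A region was assigned to 33 of them (66.0%) and a promoter region to 28 (56.0%), compared with 49.3% and 40.6% of coding genes. They held 72 regions in all. These shares were not matched for CpG content at the start. A promoter region was listed for 64.8% of coding genes in the highest CpG tertile and 54.4% in the middle. The corepressor genes Tle1 and Tle4 had 9 and 5 regions, while Tle2 of the same family had 1 and Tle3 had none. Prickle1 of the planar cell polarity pathway had 6, and Rspo2, a secreted enhancer of Wnt signaling, 4. These counts were not matched for the distance between neighboring coding starts. That distance was 2237454 bp for Tle1, 1846504 bp for Tle4 and 1082359 bp for Tle3, beside a median of 89.7 kb for coding genes. Wls, which carries all Wnt ligands to the cell surface, had 6. Porcn, which adds their lipid, had 1. The 17 genes without a region included the receptor genes Ryk and Ptk7, the Wnt feedback genes Notum, Rnf43 and Sp5, and the R-spondin genes Rspo1 and Rspo4. In the same list Znrf3, Nkd1, Nkd2, Apcdd1 and Lgr5 each had a promoter region, and Rspo3 had 2 distal regions.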

How the data were processed

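The authors made libraries with Tn5 from tissue of wild-type, Isl1-/- and Isl1Cre+/-/ Brg1fl/fl embryos, and samples were grouped by genotype in their labels. For the wild-type group, the authors mapped reads with bowtie2 to mm9. They removed unmapped, mate-unmapped and non-primary reads with samtools, and duplicates with Picard 1.136. Peaks were called in each library with MACS14, and those overlapping by at least 1 bp among replicates were kept with bedtools 2.15. The paper also names peaks overlapping the ENCODE blacklist at this step, without saying plainly that they were removed. The deposited values are region positions and distances in bp, with no signal. How genes were assigned is stated only for ChIP-Seq. No mapping quality filter is stated, so 31-mers occurring more than once in the genome were counted: 40 of 59 member regions had none, and the highest share was 6.67%, at Wnt5a. No Tn5 offset is stated and reads were extended, so edges are not insertion sites. A common region keeps the coordinates of 1 library.

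Rows with the same position were counted once, and positions were read as 1-based. Bases and exons were read from NCBIM37 (the mm9 build) and its GENCODE annotation, and gene types from the RefSeq table of GRCm38.p6. The background was 21031 coding genes, of which 18118 had an annotated start for CpG content. Every member was named with its number of regions, and values were given in full for members with 3 or more regions, the widest of each role, Axin2, Lef1, Wnt2, Wnt5a and Wnt11. Of the 8 distal windows with the most motif matches (wider region first among ties, none on chromosome 18 or in a UTR), 4 are printed with motifs in capitals and that of Wnt11 with its tRNA-like part in capitals, and upstream windows are printed for 3 genes. Members and lists were chosen with earlier results of these data known, and the CpG tertiles, the gaps, the ligand pairs and the tRNA search were added after values were seen. No column was left unmapped (0 columns). The result of 1 marker list is not reported here. The 95% Wilson intervals take in counting error only. Scripts were tested on simulated data and used Python 3.11.15, pandas 2.3.3, numpy 2.4.6, scipy 1.17.1 and pysam 0.24.0.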

Additional observations from a re-analysis of the deposited data

How the results depend on the processing

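Dropping regions narrower than the list's median width left 32 member regions in place of 59, raised the share within 1 kb from 42.4 to 71.9%, raised the median width of member regions from 1148 to 1529 bp and lowered regions per member from 1.11 to 0.604, by construction of the width limit. Taking the widest region of each member gave a median of 1483.5 bp. The number of members with a region was 26 with wider regions only, 30 for any region within 10 kb of a start whatever its symbol, 49 within 100 kb, and 32 without the tRNA-like regions, a choice made after seeing the data. Members with a promoter region numbered 22 to 26 under the alternatives tried. No share over all coding genes is given under these rules. The counts therefore do not show whether the differences from 49.3% and 40.6% of coding genes hold. Searching whole regions raised the share with each motif, as longer sequence holds more words, and the central 200 bp lowered ISL1 beyond 1 kb from 11.8 to 2.94% and TEAD within 1 kb from 12 to 0%. No paired analysis was possible because the libraries are merged in 1 list, and for the same reason no library could be left out. Depth is unknown and limits which regions are listed.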
